A study of Mus musculus with 12 samples.

Results

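Collagen genes encode the chains of the secreted and membrane-bound triple-helical proteins that make up much of the extracellular matrix. They were taken from RNA-seq count tables of mouse neuroendocrine thyroid carcinomas as every gene whose symbol has the form Col, number, a, number, which gave 43 of the 23284 genes in the tables. The 12 tumours fell into 2 groups by genotype label. The 5 tumours called RPC-labelled here carried the label Rb1/Trp53/Crebbp, and the 7 called RP-labelled carried Rb1/Trp53, so both groups share the tumour suppressor genes Rb1 and Trp53 in their genotype and differ in Crebbp, which encodes a histone acetyltransferase and coactivator. Per the series design, the purpose was to find genes regulated by Crebbp in primary tumours of an engineered mouse model. The sources used here do not give the Cre driver, the targeted exons, the cells in which the alleles were changed, or the strain and age of the mice.

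Levels are given in CPM, gene counts per 1 M of a library size scaled by TMM. Reads counted in genes came to 9.14 to 20.5 M per RPC-labelled tumour and 9.11 to 57.3 M per RP-labelled tumour, and 3 counts, taken as the detection floor, corresponded to 0.0502 to 0.312 CPM. Differences are log2 fold changes of RPC-labelled over RP-labelled tumours from edgeR's quasi-likelihood test across 14989 genes, and a gene was called at a Benjamini-Hochberg adjusted p under 0.05. Since no label states that each tumour is from its own mouse, a p-value here reflects spread among tumours that may be partly technical. Crebbp itself averaged 53.9 ± 4.19 CPM in RPC-labelled and 54.6 ± 20.04 CPM in RP-labelled tumours (SD, n = 5 and 7), with RPC-labelled values of 60.8, 52.4, 50.005, 51.8 and 54.6 CPM in replicates 1 to 5 and RP-labelled values of 41.0 to 98.9 CPM (log2 fold change -0.02 ± 0.20 SE; adjusted p = 0.957). A gene-level count cannot reveal deletion of part of a gene, so these values check neither label. The labelled neuroendocrine thyroid carcinoma carried its marker genes, with the calcitonin gene Calca between 19994 and 119488 CPM in RPC-labelled tumours and between 80584 and 215747 CPM in RP-labelled tumours.

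Some tumours stood apart. RP-labelled replicate 3 had the highest level of all 12 tumours for each of the 6 stromal fibrillar collagens and the highest RP-labelled summed fibroblast marker level, 1676 CPM. Of that sum 1041 CPM was Fn1, which reached at most 463 CPM elsewhere. By the mean z-score of log2 CPM over the same markers, replicate 3 (0.48) lay below RP-labelled replicates 4 (0.69) and 5 (0.92). RPC-labelled replicate 5 had the highest summed fibroblast markers of its group, 1026 CPM, together with 3180 CPM of summed skeletal muscle markers, a list that reached 2943 CPM in RP-labelled replicate 6 and at most 390.2 CPM elsewhere. Among the 36 tested collagens, RPC-labelled replicate 5 was the highest of its group for 20 and RP-labelled replicate 3 the highest of its group for 17.

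As background, stromal fibrils are built from the chains of types I, III and V, which fibroblasts and related mesenchymal cells secrete in quantity. Basement membranes rest on networks of type IV: the common network is made of the Col4a1 and Col4a2 chains, and other networks use Col4a3, Col4a4, Col4a5 and Col4a6. Cartilage fibrils contain types II, IX and XI, with type X added in hypertrophic cartilage, although chains of types IX and XI are also made outside cartilage. In this tumour the neoplastic cells are epithelial cells of the calcitonin-secreting kind, embedded in a vascular stroma.

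Filtering on low counts kept 36 of the 43 collagens. Among them 3 were higher in RPC-labelled tumours, Col9a2, Col11a1 and Col25a1, which is 8.33% against 9.64% of all genes tested. A further 6 were lower, Col4a3, Col4a4, Col4a5, Col11a2, Col16a1 and Col8a2, which is 16.7% against 8.61% of all genes tested. RPC-labelled and RP-labelled values were fully separate for 3 tested collagens, Col9a2, Col11a1 and Col4a5, against 6.26% of all genes. The share called higher was thus near that of all genes, and the share called lower rests on 6 genes. Without RPC-labelled replicate 1 the lower calls numbered 1 (3.49% of all genes tested were then called lower), and without RPC-labelled replicate 2 they numbered 2 (3.41%). Without RPC-labelled replicate 3 (5.12%) or RP-labelled replicate 2 (4.91%) they numbered 3. The median log2 fold change of the tested collagens was -0.43, with 25 below 0 and 11 above, against a median of -0.02 over all genes. Without RP-labelled replicate 3 that median was -0.13, with 21 below 0 and 15 above. The filter keeps genes with counts in enough tumours of 1 group, so these 36 do not stand for all 43. In bulk samples fewer cells of a type and less RNA per cell cannot be told apart. The remaining 7 were Col2a1, Col6a4, Col6a5, Col6a6, Col19a1, Col24a1 and Col28a1, each at 3.69 CPM or less in every tumour.

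**Figure D1:**
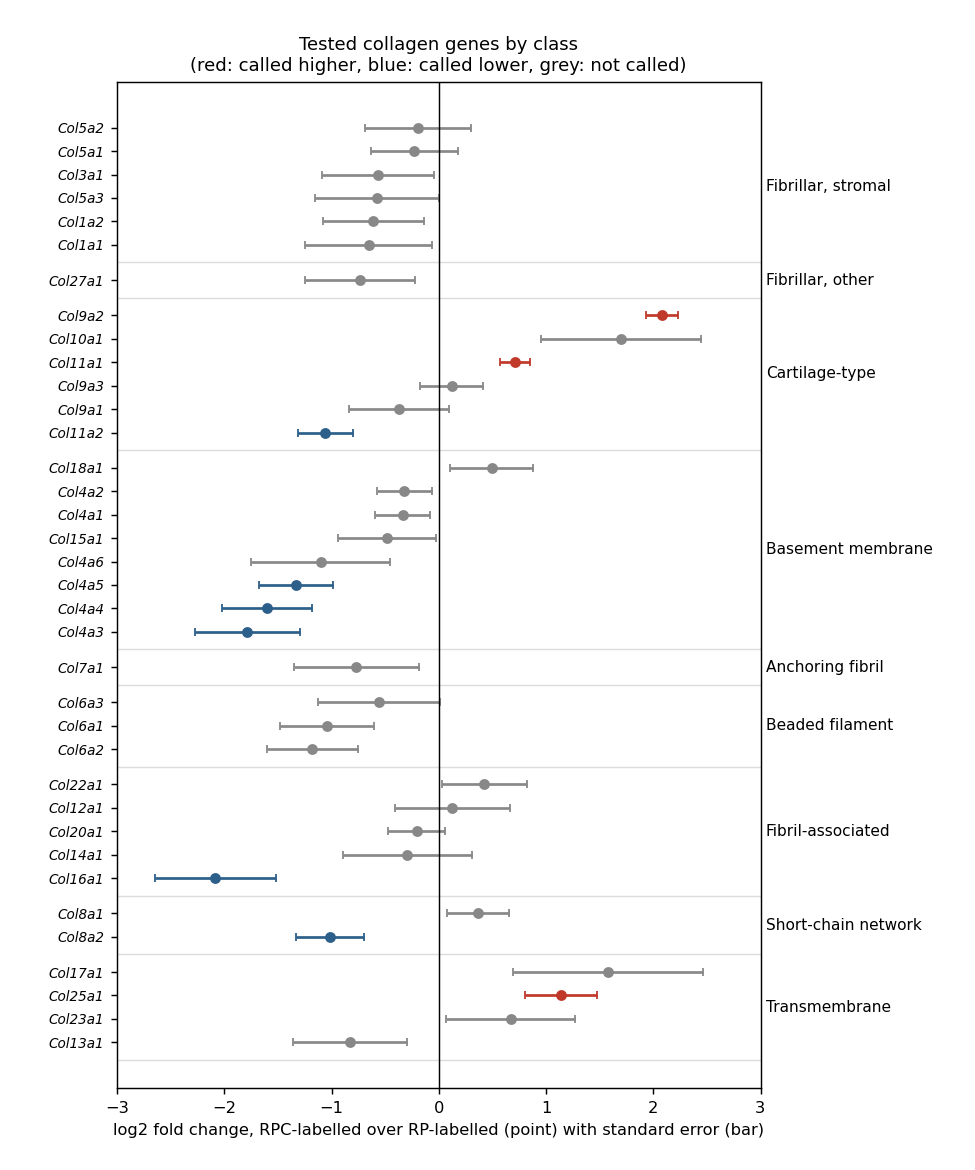
The log2 fold change of RPC-labelled over RP-labelled tumours is drawn on the x axis for each of the 36 tested collagens, grouped by class down the page, with its standard error as a bar (5 RPC-labelled and 7 RP-labelled tumours). Col9a2 at 2.08 and Col11a1 at 0.71 have the shortest bars of the called genes, the called type IV chains lie at -1.79 to -1.33, and the 6 stromal fibrillar genes all lie below 0 without a call.

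Of the 7 cartilage-type collagens, 6 were tested. In RPC-labelled tumours 2 rose (33.3%, against 9.64% of all genes tested) and 1 fell (16.7%, against 8.61%). These shares rest on few genes, and the members were chosen with earlier results of these data known. Col9a2, which encodes the alpha-2 chain of type IX collagen, a heterotrimer that decorates fibrils, stood at 27.4, 24.7, 21.4, 30.2 and 22.4 CPM in RPC-labelled replicates 1 to 5 and at 4.68 to 7.31 CPM in RP-labelled tumours (median 5.98). Every RPC-labelled tumour was above every RP-labelled tumour. The means were 25.2 ± 3.60 CPM in RPC-labelled and 5.93 ± 1.14 CPM in RP-labelled tumours (SD, n = 5 and 7), a 4.23-fold difference (log2 fold change 2.08 ± 0.15 SE; adjusted p = 3.63e-05), and only 1 of the 14989 genes had a smaller p. It was called under all 21 alternative settings, with log2 fold changes of 1.94 to 2.14. The other type IX chains were not called. Col9a3 averaged 4.31 ± 1.503 CPM in RPC-labelled and 3.96 ± 1.42 CPM in RP-labelled tumours (SD, n = 5 and 7; log2 fold change 0.12 ± 0.29 SE; adjusted p = 0.793) and Col9a1 averaged 1.19 ± 0.850 CPM in RPC-labelled and 1.56 ± 0.701 CPM in RP-labelled tumours (SD, n = 5 and 7; log2 fold change -0.37 ± 0.47 SE; adjusted p = 0.593). The groups overlapped for both. The ratio of Col9a2 to Col9a3 counts was 5.56, 8.15, 6.58, 4.53 and 6.08 in RPC-labelled replicates 1 to 5, against 1.25 to 2.05 in RP-labelled tumours, with no overlap, as for Col9a2 alone.

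Col11a1 and Col11a2 encode chains of type XI collagen, a minor fibrillar collagen that sits within cartilage fibrils, and they moved in opposite directions. Col11a1 stood at 138, 161, 172, 140.5 and 183 CPM in RPC-labelled replicates 1 to 5 and at 79.8 to 128 CPM in RP-labelled tumours (median 88.4). The lowest RPC-labelled value was above the highest RP-labelled one, though the gap was smaller than the spread within either group. The difference was 1.63-fold (log2 fold change 0.71 ± 0.14 SE; adjusted p = 0.00901). Col11a2 stood at 3.59, 2.66, 3.44, 3.46 and 3.91 CPM in RPC-labelled replicates 1 to 5 and at 3.17 to 9.63 CPM in RP-labelled tumours (median 6.92). It was lower in RPC-labelled tumours, with RP-labelled replicate 7, at 3.17 CPM, inside the RPC-labelled range (log2 fold change -1.06 ± 0.26 SE; adjusted p = 0.0196). Without RPC-labelled replicate 2 the adjusted p of Col11a2 was 0.0518, and with the fibroblast marker score as a covariate it was 0.0671 at a log2 fold change of -0.93. In that fit 4.35% of all genes tested were called higher and 3.40% lower. The ratio of Col11a1 to Col11a2 counts was 38.5 to 60.6 in RPC-labelled tumours and 9.80 to 25.2 in RP-labelled tumours, so Col11a1 had the higher count in all 12.

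Col2a1, which encodes type II collagen, the main fibril protein of cartilage, was at 0.126 to 0.652 CPM in RPC-labelled tumours and at 0 to 0.385 CPM in RP-labelled tumours, too low for the test. Col10a1, the type X chain of hypertrophic cartilage, stood at 13.4, 2.84, 13.5, 4.44 and 31.5 CPM in RPC-labelled replicates 1 to 5 and at 0.487 to 11.1 CPM in RP-labelled tumours (median 3.08). Its groups overlapped and it was not called (log2 fold change 1.70 ± 0.75 SE; adjusted p = 0.123), though limma voom with sample weights gave an adjusted p of 0.00964. Of 9 chondrocyte markers found in the tables, 4 were tested, and edgeR called none, with none at an unadjusted p under 0.05. Their summed level was 33.3 to 109 CPM in RPC-labelled tumours and 27.8 to 79.4 CPM in RP-labelled tumours, most of it from Sox9, a transcription factor also expressed by some epithelia, and Chad. The cartilage matrix genes Matn1 and Matn3 stayed at or under 0.507 CPM in every tumour, and Acan, which encodes aggrecan, reached 16.0 CPM in RPC-labelled replicate 5 and at most 1.30 CPM in the other 11. Comp, a cartilage matrix protein gene, averaged 3.22 ± 2.70 CPM in RPC-labelled and 2.48 ± 0.560 CPM in RP-labelled tumours (SD, n = 5 and 7; log2 fold change 0.38 ± 0.47 SE; adjusted p = 0.58).

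The upstream sequences of the 3 called cartilage-type genes are given because these genes share a matrix role yet differed in direction. They are the RefSeq windows of GRCm38.p6 from 250 bases before the start site to 50 bases after it, written 5′ to 3′ on the gene's strand. Capitals mark the GC box (GGGCGG or CCGCCC) and the TATA box (TATAAA or TTTATA).
Col9a2, chr4:121039316-121039615, plus strand: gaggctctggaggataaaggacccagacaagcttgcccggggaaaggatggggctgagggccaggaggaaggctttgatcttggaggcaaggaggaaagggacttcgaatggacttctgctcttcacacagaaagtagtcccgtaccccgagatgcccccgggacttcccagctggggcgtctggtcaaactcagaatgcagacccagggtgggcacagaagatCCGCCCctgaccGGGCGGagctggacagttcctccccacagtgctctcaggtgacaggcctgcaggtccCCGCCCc
Col11a1, chr3:114030290-114030589, plus strand: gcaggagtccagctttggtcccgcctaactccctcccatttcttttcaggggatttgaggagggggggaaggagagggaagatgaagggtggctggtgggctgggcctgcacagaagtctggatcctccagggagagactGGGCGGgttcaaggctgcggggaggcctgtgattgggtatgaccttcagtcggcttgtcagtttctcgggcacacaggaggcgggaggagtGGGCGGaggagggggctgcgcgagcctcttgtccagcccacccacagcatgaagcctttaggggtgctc
Col11a2, chr17:34038888-34039187, plus strand: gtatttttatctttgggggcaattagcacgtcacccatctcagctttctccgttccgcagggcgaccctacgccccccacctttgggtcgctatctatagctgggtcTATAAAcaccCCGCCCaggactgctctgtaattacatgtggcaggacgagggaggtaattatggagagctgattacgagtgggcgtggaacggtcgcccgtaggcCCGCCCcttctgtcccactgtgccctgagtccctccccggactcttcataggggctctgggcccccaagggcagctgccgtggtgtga
The Col9a2 window held 3 GC boxes, the Col11a1 window 2, and the Col11a2 window 2 with 1 TATA box close upstream of the first of them. A gene counts here if any of its windows holds the motif on either strand. A GC box was in 22 of the 35 collagens with a window in that table (62.9%), against 38.2% of all 27025 genes in it. These shares were not matched for base composition. The Col9a2, Col11a1 and Col11a2 windows were 61.7%, 62.3% and 59.0% G or C, against a median of 52.7% over all windows. The TATA box was in 5 of 35 (14.3%), against 15.7% of all genes. CCAAT was in 13 of 35 (37.1%), against 41.1% of all genes. The cyclic AMP response element TGACGTCA, the site of the factor CREB, whose binding gave Crebbp its name, was in the window of 1 collagen, Col24a1, and in 2.03% of all genes, and its core TGACG, which the full site contains, was in 4 of 35 (11.4%), against 23.0% of all genes.

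**Figure D2:**
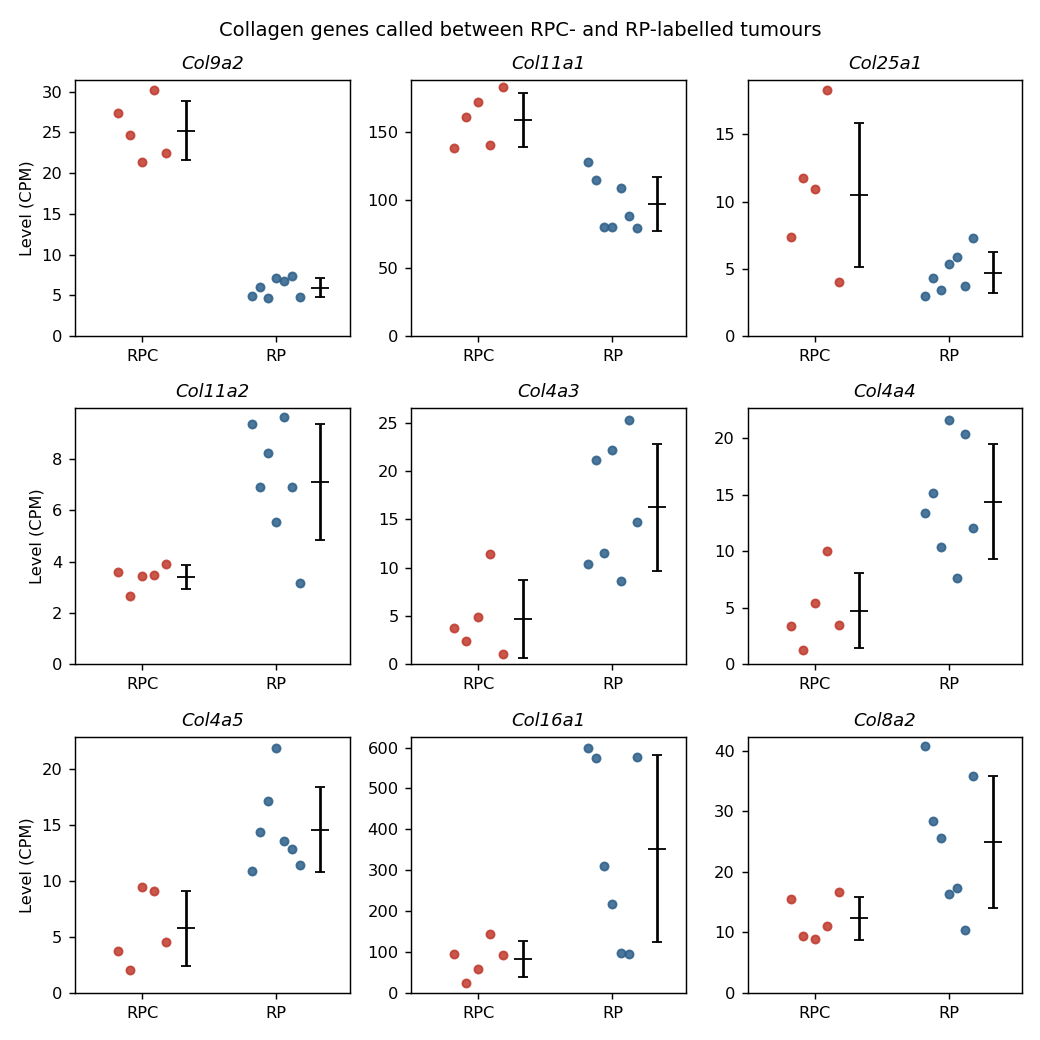
Each panel shows 1 called collagen gene, with its level in CPM on a linear y axis from 0, 1 point per tumour, RPC-labelled tumours (n = 5) left of RP-labelled tumours (n = 7), and the mean with its SD as a bar. The groups do not overlap for Col9a2, Col11a1 and Col4a5, and in the Col16a1 panel the RP-labelled tumours spread from 94.6 to 598 CPM.

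Among the 8 basement membrane collagens, all tested, 3 were lower in RPC-labelled tumours (37.5%, against 8.61% of all genes tested). These 3 were minor type IV chains, and Col4a6 and the major chains were not called. Col4a3 and Col4a4 encode chains that, with the Col4a5 chain, form the network known from the glomerular basement membrane. Col4a3 stood at 3.78, 2.38, 4.91, 11.5 and 1.09 CPM in RPC-labelled replicates 1 to 5 and at 8.60 to 25.3 CPM in RP-labelled tumours (median 14.7). The ranges met only through RPC-labelled replicate 4, at 11.5 CPM, which lay above the RP-labelled values of replicates 1 and 5 (log2 fold change -1.79 ± 0.49 SE; adjusted p = 0.0282). Col4a4 stood at 3.40, 1.28, 5.47, 10.03 and 3.48 CPM in RPC-labelled replicates 1 to 5 and at 7.62 to 21.6 CPM in RP-labelled tumours (median 13.4), and again RPC-labelled replicate 4 was the one value within the RP-labelled range (log2 fold change -1.60 ± 0.42 SE; adjusted p = 0.0238). Col4a5 stood at 3.72, 2.02, 9.43, 9.15 and 4.56 CPM in RPC-labelled replicates 1 to 5 and at 10.9 to 21.9 CPM in RP-labelled tumours (median 13.6), without overlap (log2 fold change -1.33 ± 0.35 SE; adjusted p = 0.0229). Col4a6, whose product pairs with that of Col4a5 in other basement membranes, was not called, at 3.32 ± 2.85 CPM in RPC-labelled and 7.19 ± 4.67 CPM in RP-labelled tumours (SD, n = 5 and 7; log2 fold change -1.10 ± 0.65 SE; adjusted p = 0.239). Its RP-labelled values ran from 1.12 to 14.3 CPM.

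The major type IV chains gave other values. Col4a1 averaged 163 ± 44.5 CPM in RPC-labelled and 206 ± 82.4 CPM in RP-labelled tumours (SD, n = 5 and 7; log2 fold change -0.34 ± 0.26 SE; adjusted p = 0.37) and Col4a2 averaged 101 ± 25.5 CPM in RPC-labelled and 126 ± 51.1 CPM in RP-labelled tumours (SD, n = 5 and 7; log2 fold change -0.32 ± 0.26 SE; adjusted p = 0.384), with overlapping groups for both. Over all 12 tumours their ratio to each other had the smallest fold range of the chain pairs examined, at 1.49 to 1.68 in RPC-labelled tumours and 1.34 to 1.86 in RP-labelled tumours. Within RP-labelled tumours alone the ratio of Col6a1 to Col6a2, at 0.849 to 1.07, was narrower. By comparison, summed basement membrane collagen varied 3.04-fold over all 12 tumours. Set against Col4a1, Col4a3 counts were 0.0254, 0.0181, 0.0288, 0.0909 and 0.0046 in RPC-labelled replicates 1 to 5, against 0.0323 to 0.149 in RP-labelled tumours. The ratio was below every RP-labelled value in 4 of the 5 RPC-labelled tumours and inside their range in replicate 4. Col15a1, whose product lies beneath endothelial and other basement membranes, was not called (log2 fold change -0.48 ± 0.46 SE; adjusted p = 0.467). Neither was Col18a1, the source of the endostatin fragment (log2 fold change 0.49 ± 0.39 SE; adjusted p = 0.378), except without RP-labelled replicate 3 (log2 fold change 0.91; adjusted p = 0.0313) and with limma voom (0.77; adjusted p = 0.0382).

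The calls of the minor type IV chains were close to the threshold. Col4a5 was not called without RPC-labelled replicate 1 (adjusted p = 0.0588), nor Col4a4 without RPC-labelled replicate 1 (0.0606) or 5 (0.0510), and Col4a3 was not called without RPC-labelled replicate 1 (0.0674), 2 (0.0742) or 3 (0.0564) or RP-labelled replicate 2 (0.0528), 4 (0.0550) or 6 (0.0531). With the fibroblast marker score as a covariate Col4a3 was called (log2 fold change -2.27; adjusted p = 0.0428). Col4a4 (-1.65; 0.0601) and Col4a5 (-1.10; 0.0970) were not, with the fold change of Col4a4 as large as without the score. In that fit 3.40% of all genes tested were called lower, against 8.61% without the score. Thyroid follicular cell markers were also lower. Of 9 tested markers 2 were called lower (22.2%, against 8.61% of all genes tested), Dio1 (log2 fold change -1.78; adjusted p = 0.00451) and Tshr (-2.48; 0.0333). With edgeR 8 of the 9 had an unadjusted p under 0.05, against 35.6% of all genes tested. The summed level of the list, mostly the thyroglobulin gene Tg outside RPC-labelled replicate 2, was 883, 55.7, 1813, 5752 and 376 CPM in RPC-labelled replicates 1 to 5, against 1639 to 9295 CPM in RP-labelled tumours. RPC-labelled replicate 4, the highest of its group for Col4a3 and Col4a4, was thus also the highest of its group for these markers. In RP-labelled tumours follicular sums and these chains ran in parallel in some tumours and not in others. Replicate 1 had the highest follicular sum, 9295 CPM, with Col4a3, Col4a4 and Col4a5 at 10.3, 13.4 and 10.9 CPM. Replicate 3 had the lowest, 1639 CPM, with these chains at 11.6, 10.4 and 17.2 CPM. Replicate 4, with a sum of 9102 CPM, had the highest Col4a4 and Col4a5, 21.6 and 21.9 CPM, and Col4a3 at 22.2 CPM. Replicate 5, with 6237 CPM, had the lowest Col4a3 and Col4a4, 8.60 and 7.62 CPM. The extremes of summed neuroendocrine markers fell in the same tumours as those of Col4a3. Their sums were highest in RPC-labelled replicate 4 (138349 CPM) and RP-labelled replicate 6 (233925 CPM). They were lowest in RPC-labelled replicate 5 (25361 CPM) and RP-labelled replicate 5 (95793 CPM). For Col4a4 and Col4a5 the highest RP-labelled values, 21.6 and 21.9 CPM, were instead in replicate 4. The part of follicular or neuroendocrine cells in the result was not tested. The Tshr call was lost without RPC-labelled replicate 1, 2 or 5 or RP-labelled replicate 2, 4 or 6 (adjusted p = 0.0581 to 0.0779). Of the follicular list only Slc26a4 was at 0 in any tumour, in 3 of 12.

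Col4a1 and Col4a2 lie head to head. In the RefSeq table their start sites lie 21 bases apart on opposite strands, with the 5′ ends of the genes overlapping, so their windows share 78 bases, shown in capitals in the Col4a2 window because the pair kept the narrowest count ratio over all 12 tumours.
Col4a2, chr8:11312555-11312854, plus strand, GRCm38.p6: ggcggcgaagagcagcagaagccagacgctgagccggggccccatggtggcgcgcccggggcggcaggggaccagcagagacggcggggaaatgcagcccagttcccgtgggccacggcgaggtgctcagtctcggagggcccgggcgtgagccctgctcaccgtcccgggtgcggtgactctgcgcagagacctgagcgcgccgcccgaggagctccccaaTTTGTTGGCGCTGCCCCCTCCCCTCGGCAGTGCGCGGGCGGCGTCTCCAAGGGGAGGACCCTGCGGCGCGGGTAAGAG
The start sites of Col4a5 and Col4a6 lie 1343 bases apart on opposite strands. Their count ratio ranged more widely, from 1.19 to 3.14 in RPC-labelled tumours and from 1.30 to 9.69 in RP-labelled tumours. Col4a6 counts were low, down to 7 in RPC-labelled replicate 2 and 16 in RP-labelled replicate 1. Whether the spacing of start sites bears on these ratios was not tested.

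**Figure D3:**
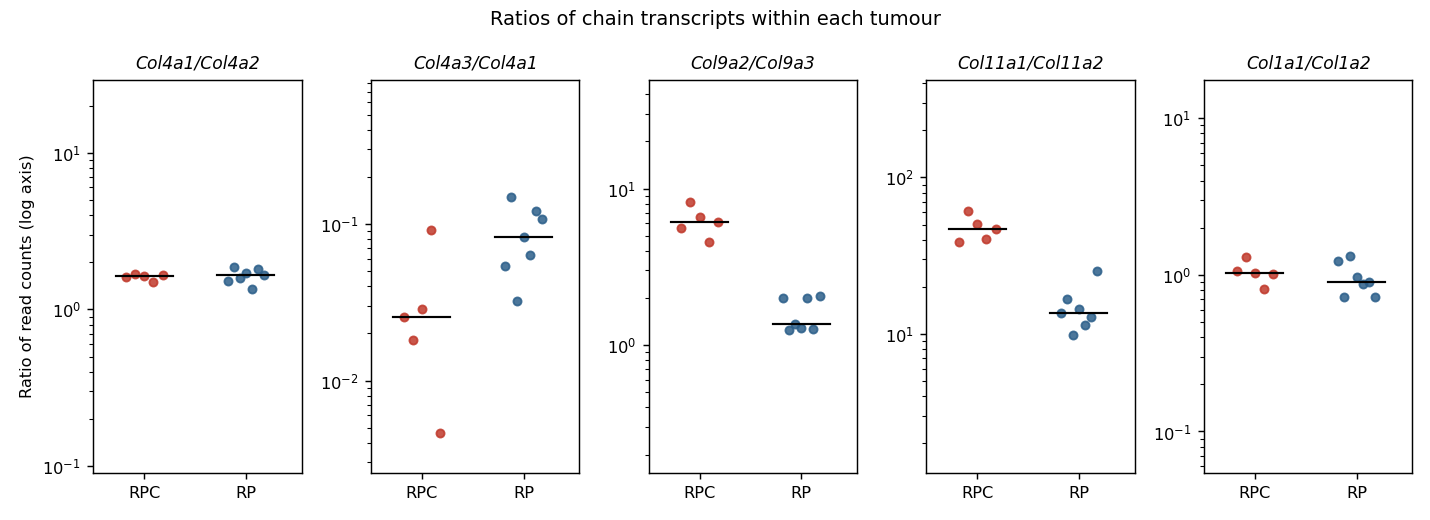
Ratios of the read counts of paired collagen chains within each tumour are plotted on log y axes of equal span, RPC-labelled tumours (n = 5) left of RP-labelled tumours (n = 7), with the group median as a line. Col9a2/Col9a3 and Col11a1/Col11a2 separate the groups, Col4a1/Col4a2 stays between 1.34 and 1.86 in all 12 tumours, and Col4a3/Col4a1 is lowest in RPC-labelled replicate 5.

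None of the 6 stromal fibrillar collagens was called in either direction. Col1a1 and Col1a2, which encode the chains of type I collagen, the main protein of stromal fibrils, had log2 fold changes of -0.65 ± 0.59 SE (adjusted p = 0.447) and -0.61 ± 0.47 SE (adjusted p = 0.372). Col1a1 stood at 168, 229, 209, 78.9 and 375 CPM in RPC-labelled replicates 1 to 5 and at 73.1 to 1047 CPM in RP-labelled tumours (median 269). All 5 RPC-labelled values lay inside the RP-labelled range. Col3a1, the type III chain found with type I in distensible tissue, averaged 316 ± 206 CPM in RPC-labelled and 468 ± 365 CPM in RP-labelled tumours (SD, n = 5 and 7; log2 fold change -0.57 ± 0.52 SE; adjusted p = 0.458). Col5a1, Col5a2 and Col5a3, chains of the fibril-nucleating type V, had log2 fold changes of -0.23, -0.19 and -0.58. Without RP-labelled replicate 3 the type V values turned to 0.21, 0.22 and 0.17, and those of Col1a1, Col1a2 and Col3a1 came to -0.02, -0.17 and -0.14. Summed over the class, 438.3 to 1644 CPM were found in RPC-labelled tumours and 358 to 3481 CPM in RP-labelled tumours. Col27a1, the tested chain of the 2 later fibrillar types, was not called either (log2 fold change -0.74 ± 0.52 SE; adjusted p = 0.324).

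Fibroblast markers were set beside these levels. Of 12 tested, 2 were called lower (16.7%, against 8.61% of all genes tested), Thy1 (log2 fold change -1.71; adjusted p = 0.00427) and Pdgfra (-1.34; 0.0484), and none higher. Their summed level was 474, 509, 694, 343 and 1026 CPM in RPC-labelled replicates 1 to 5, against 659 to 1676 CPM in RP-labelled tumours (median 930.4). Of the highest sum, in RP-labelled replicate 3, 1041 CPM was Fn1. Leaving out any 1 of RPC-labelled replicates 1 to 4 or RP-labelled replicates 2, 4, 5, 6 or 7 ended the Pdgfra call (adjusted p = 0.0550 to 0.108). No fibroblast marker was at 0 in any tumour.

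Col16a1 had the largest fall among the tested collagens. It encodes a fibril-associated chain with interrupted triple helices, known from skin and smooth muscle. Its levels were 94.0, 24.9, 58.7, 145 and 93.6 CPM in RPC-labelled replicates 1 to 5 and 94.6 to 598 CPM in RP-labelled tumours (median 310.1), with means of 83.2 ± 44.9 CPM in RPC-labelled and 353 ± 228 CPM in RP-labelled tumours (SD, n = 5 and 7; log2 fold change -2.08 ± 0.56 SE; adjusted p = 0.0267). The RP-labelled tumours were spread widely: replicates 1, 2 and 7 held 598, 576 and 576 CPM, while replicates 5 and 6, at 98.4 and 94.6 CPM, lay inside the RPC-labelled range of 24.9 to 145 CPM. Without RPC-labelled replicate 1 (adjusted p = 0.0568), 2 (0.0617) or 3 (0.0601), or RP-labelled replicate 2 (0.0513), it was not called. RP-labelled replicate 3, highest for the stromal fibrils, stood at 310.1 CPM and was only the fourth highest for Col16a1. The other 4 tested members of its fibril-associated class were not called, with log2 fold changes of -0.29 for Col14a1, -0.21 for Col20a1, 0.13 for Col12a1 and 0.43 for Col22a1. In RP-labelled replicate 7, this class made up 37.7% of all collagen counts.

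Of the 2 short-chain network collagens, Col8a2 was lower and Col8a1 was not called. Both encode chains of type VIII, a network former of vessel walls and the corneal endothelial membrane. Col8a2 stood at 15.5, 9.44, 8.82, 11.1 and 16.7 CPM in RPC-labelled replicates 1 to 5 and at 10.4 to 40.7 CPM in RP-labelled tumours (median 25.5). The groups overlapped from 10.4 to 16.7 CPM (log2 fold change -1.01 ± 0.32 SE; adjusted p = 0.044). This was the least stable of the calls: it was made under 8 of 21 alternatives, was not made with limma voom (adjusted p = 0.0735), and the adjusted p without 1 tumour at a time ran from 0.0272 to 0.106, with the call gone on leaving out RPC-labelled replicate 1, 2, 3 or 4 or RP-labelled replicate 1, 2, 4 or 7. Col8a1 averaged 132 ± 30.8 CPM in RPC-labelled and 103 ± 44.5 CPM in RP-labelled tumours (SD, n = 5 and 7; log2 fold change 0.37 ± 0.29 SE; adjusted p = 0.379), and limma voom called it higher (0.74; adjusted p = 0.0258). The ratio of Col8a1 to Col8a2 counts was 7.16 to 18.8 in RPC-labelled tumours and 1.33 to 6.99 in RP-labelled tumours, without overlap, though each gene alone overlapped between the groups. Ratios were formed for chosen chain pairs only, so how often pairs of other genes separate the groups is not known.

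The 4 transmembrane collagens include the third gene that rose. Col25a1 encodes a brain-expressed transmembrane collagen whose shed ectodomain is found in amyloid plaques. It stood at 7.37, 11.7, 10.9, 18.3 and 3.98 CPM in RPC-labelled replicates 1 to 5 and at 2.95 to 7.29 CPM in RP-labelled tumours (median 4.33). RPC-labelled replicate 5 lay inside the RP-labelled range, and replicate 1, at 7.37 CPM, was barely above its upper end of 7.29 CPM. The mean difference was 2.20-fold (log2 fold change 1.14 ± 0.33 SE; adjusted p = 0.034). Leaving out RPC-labelled replicate 2, 3 or 4 or RP-labelled replicate 2, 4 or 6 ended the call, with adjusted p-values of 0.0576 to 0.0848. With the fibroblast marker score as a covariate the adjusted p was 0.197. In that fit 4.35% of all genes tested were called higher, against 9.64% without the score. Col23a1 and Col17a1 each rested on 1 tumour: Col23a1 reached 62.2 CPM in RPC-labelled replicate 4, and Col17a1, the hemidesmosome collagen of stratified epithelium, reached 18.4 CPM in RPC-labelled replicate 5 and at most 2.43 CPM elsewhere. Neither was called, and without that tumour their log2 fold changes were -0.57 for Col23a1 and -0.99 for Col17a1. Col13a1 was not called either (log2 fold change -0.83 ± 0.53 SE; adjusted p = 0.28).

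The beaded-filament chains of type VI, a collagen of the space around cells, were not called. Col6a1 averaged 62.5 ± 15.8 CPM in RPC-labelled and 129 ± 98.9 CPM in RP-labelled tumours (SD, n = 5 and 7; log2 fold change -1.04 ± 0.43 SE; adjusted p = 0.108), and Col6a2 averaged 57.9 ± 15.9 CPM in RPC-labelled and 131 ± 91.7 CPM in RP-labelled tumours (SD, n = 5 and 7; log2 fold change -1.18 ± 0.42 SE; adjusted p = 0.0686). Col6a2 passed the threshold with DESeq2 (adjusted p = 0.0203) and without RP-labelled replicate 1 (0.0439). The low type VI chain Col6a6 was at 0.0943 CPM or less in RPC-labelled tumours and at 0.141 CPM or more in RP-labelled tumours, levels near the detection floor that the filter left untested. DESeq2 (log2 fold change -2.29; adjusted p = 0.0276) and the fit without a filter (-2.17; 0.0251) called it lower. Col7a1, the anchoring fibril chain of skin, ranged from 47.4 to 159 CPM in RPC-labelled tumours and from 13.2 to 360.0 CPM in RP-labelled tumours, and was not called (log2 fold change -0.77 ± 0.58 SE; adjusted p = 0.361).

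**Figure D4:**
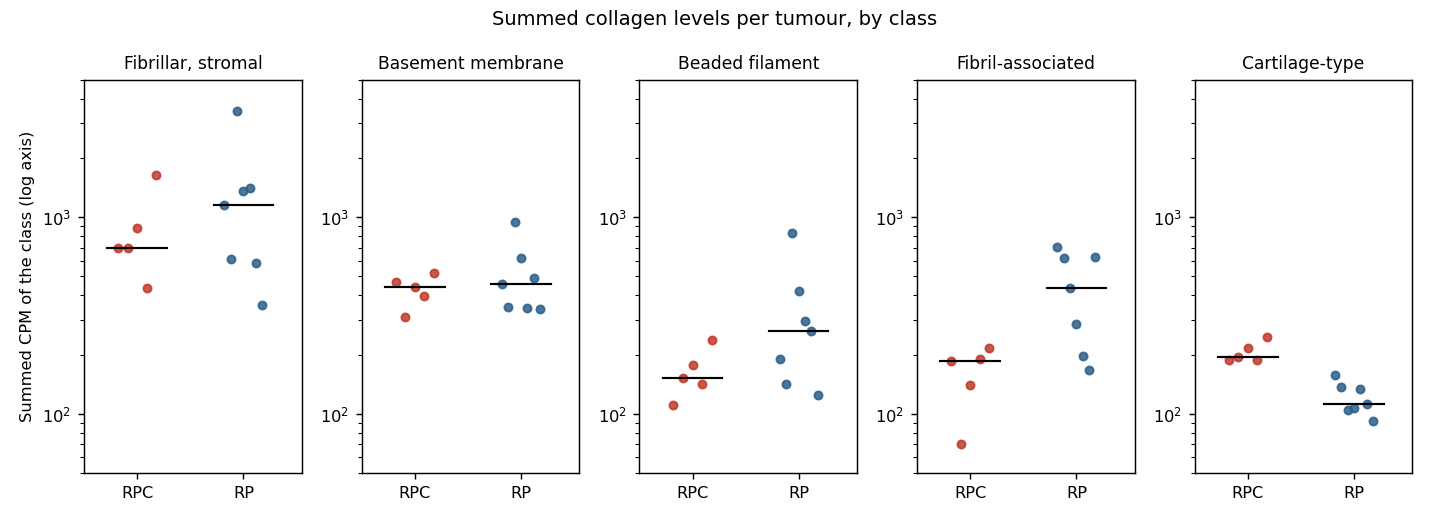
Summed CPM per tumour of 5 collagen classes is plotted on log y axes with a shared range, RPC-labelled tumours (n = 5) left of RP-labelled tumours (n = 7), with group medians as lines. Cartilage-type sums of 188 to 246 CPM in RPC-labelled tumours lie above the RP-labelled 91.9 to 157 CPM, while the stromal fibrillar sums overlap from 438.3 to 1644 CPM and peak in RP-labelled replicate 3.

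In sum over the 43 genes, collagen made up 0.166% to 0.365% of gene counts in RPC-labelled tumours and 0.147% to 0.650% in RP-labelled tumours. The stromal fibrillar class held 25.7% to 53.2% of collagen counts in RPC-labelled tumours and 21.5% to 56.4% in RP-labelled tumours. Cartilage-type genes held 7.95% to 11.7% in RPC-labelled tumours and 1.69% to 6.47% in RP-labelled tumours, without overlap, and Col11a1 supplied most of these counts in every tumour. Scaled by exon length, the highest median levels over all tumours were those of Col3a1 (means of 56.8 CPM per kb in RPC-labelled and 84.2 CPM per kb in RP-labelled tumours), Col1a1 (35.7 and 56.3) and Col1a2 (37.6 and 57.3). Col11a1 ranked eighth of the 43 by its median over all tumours, at 20.8 CPM per kb in RPC-labelled and 12.7 CPM per kb in RP-labelled tumours. The type IX chains on the same scale were at 8.62 and 2.03 CPM per kb for Col9a2, 1.41 and 1.30 for Col9a3, and 0.291 and 0.379 for Col9a1 in RPC-labelled and RP-labelled tumours. In RPC-labelled tumours Col9a2 was thus several times the level of its partner chains per length. Col4a3, at 0.552 CPM per kb in RPC-labelled and 1.90 CPM per kb in RP-labelled tumours, was far below Col4a1, at 24.6 and 31.1 CPM per kb. Exons of 13 collagens overlap another annotated gene, by 7.68% of exon length for Col9a3 with Tcfl5 on the opposite strand and by 3.20% for Col4a3, and no source used here states whether the counting used strand. Reads from such overlaps therefore cannot be told apart.

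**Figure D5:**
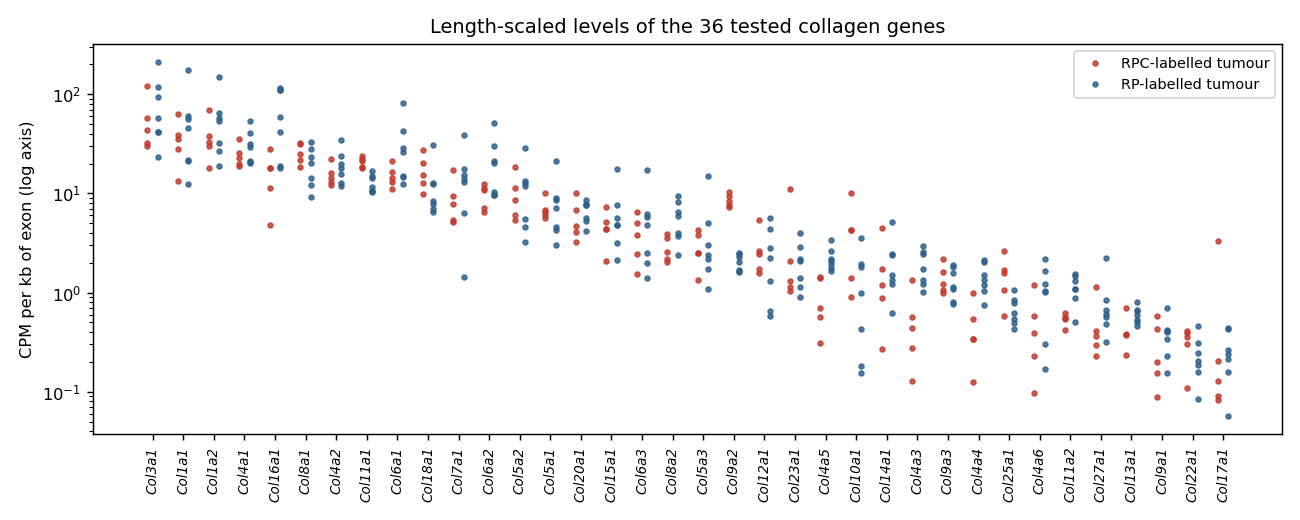
CPM per kb of exon (log y axis) is plotted for the 36 tested collagens in order of their median over all tumours, 1 point per tumour, RPC-labelled tumours left of RP-labelled tumours at each gene, with values of 0 left out. Col3a1, Col1a1 and Col1a2 lead, and Col9a2 stands at 7.33 to 10.3 CPM per kb in RPC-labelled tumours against 1.60 to 2.50 CPM per kb in RP-labelled tumours.

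The genes that make, process and bind collagen were followed in companion lists. Of 20 tested biosynthesis genes, 2 fell (10%, against 8.61% of all genes tested) and none rose. Fkbp14, a prolyl isomerase of the endoplasmic reticulum that binds collagen, averaged 15.4 ± 2.13 CPM in RPC-labelled and 20.7 ± 0.674 CPM in RP-labelled tumours (SD, n = 5 and 7) without overlap (log2 fold change -0.43 ± 0.10 SE; adjusted p = 0.0178), and Crtap, a subunit of the prolyl 3-hydroxylase complex, averaged 17.2 ± 2.78 CPM in RPC-labelled and 25.1 ± 4.83 CPM in RP-labelled tumours (SD, n = 5 and 7; log2 fold change -0.54 ± 0.15 SE; adjusted p = 0.0304). Of 11 processing and crosslinking genes 1 fell (9.09%), Pcolce, an enhancer of procollagen C-proteinase, at 22.6 ± 10.9 CPM in RPC-labelled and 49.5 ± 19.5 CPM in RP-labelled tumours (SD, n = 5 and 7; log2 fold change -1.13 ± 0.33 SE; adjusted p = 0.0347). Of 10 degradation genes 1 fell (10%), the inhibitor Timp2 (log2 fold change -0.77 ± 0.25 SE; adjusted p = 0.0457). These shares are near that of all genes. With edgeR none of 8 receptor genes and none of 9 fibril-associated proteoglycan genes was called, and 1 of each had an unadjusted p under 0.05, against 35.6% of all genes tested. The smallest p among them belonged to Ddr1, a collagen-binding receptor tyrosine kinase (log2 fold change -0.43 ± 0.19 SE; adjusted p = 0.13), and to the small proteoglycan gene Dcn (log2 fold change -1.09 ± 0.48 SE; adjusted p = 0.127). Ddr1 was called lower without RPC-labelled replicate 4 (-0.59; adjusted p = 0.0370), and Dcn with limma voom (-1.75; 0.0163). The list medians were -0.27 for biosynthesis, -0.41 for processing, -0.55 for degradation, 0.03 for receptors and -0.94 for proteoglycans. Crtap was not called without RPC-labelled replicate 1, 2 or 3 or RP-labelled replicate 4 or 6 (adjusted p = 0.0513 to 0.0735), and Pcolce not without RPC-labelled replicate 1, 2, 3 or 4 or RP-labelled replicate 2, 4 or 6 (0.0543 to 0.0833). For Timp2 the call was lost without any 1 of RPC-labelled replicates 1 to 4 or RP-labelled replicates 2 to 6 (0.0564 to 0.108). These 4 calls were lost when the fibroblast marker score was added to the fit, with log2 fold changes of -0.37 for Fkbp14 (adjusted p = 0.0622), -0.36 for Crtap (0.117), -0.68 for Pcolce (0.0568) and -0.42 for Timp2 (0.0882). In that fit 3.40% of all genes tested were called lower, against 8.61% without the score, so a lost call does not assign a gene to fibroblasts. Fkbp14 was also not called in tumours numbered 1 to 5, with the replicate block (0.103) or without it (0.0541).

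Among 16 other basement membrane genes, 2 fell (12.5%, against 8.61% of all genes tested) and none rose, with a list median of -0.59. Lamb2, the laminin beta-2 chain, stood at 14.0, 12.3, 27.3, 30.8 and 31.1 CPM in RPC-labelled replicates 1 to 5 and at 44.4 to 76.6 CPM in RP-labelled tumours (median 50.9), without overlap (log2 fold change -1.28 ± 0.26 SE; adjusted p = 0.00989). Lamc3, a low laminin gamma chain, averaged 0.547 ± 0.167 CPM in RPC-labelled and 1.27 ± 0.571 CPM in RP-labelled tumours (SD, n = 5 and 7; log2 fold change -1.19 ± 0.38 SE; adjusted p = 0.0469), and was not called on leaving out any 1 of the 5 RPC-labelled tumours or RP-labelled replicate 2, 4, 5, 6 or 7 (adjusted p = 0.0521 to 0.113). With edgeR none of 7 tested cartilage genes other than collagens was called, nor had any an unadjusted p under 0.05, and their median was 0.12. Their summed level was 601 CPM in RPC-labelled replicate 4 and 91.5 to 124 CPM in the other RPC-labelled tumours, against 899 CPM in RP-labelled replicate 7 and 61.8 to 182 CPM in the other RP-labelled tumours. Most of both high sums was Prg4, which encodes lubricin, at 489 CPM in RPC-labelled replicate 4 and 818 CPM in RP-labelled replicate 7.

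Other cell type markers were also compared between the groups, in which 8.61% of all genes tested were called lower. Adipocyte markers were called lower for 8 of 9 tested (88.9%), led by Plin1 (log2 fold change -3.66; adjusted p = 0.0193), Fabp4 (-3.10; 0.0244) and Retn (-3.10; 0.0261), with sums of 57.4 to 163 CPM in RPC-labelled and 81.8 to 2050 CPM in RP-labelled tumours. Pericyte and smooth muscle markers were called lower for 4 of 9 (44.4%), led by Myh11 (-1.49; 0.0112), Tagln (-0.86; 0.0205) and Abcc9 (-0.85; 0.0313), with sums of 71.8 to 486 CPM in RPC-labelled and 106 to 309 CPM in RP-labelled tumours. Des made up 383 CPM of the highest RPC-labelled sum, in replicate 5, and 196 CPM of the highest RP-labelled sum, in replicate 6. These tumours also held the highest skeletal muscle marker sums of their groups. Endothelial markers were called lower for 2 of 10 (20%, a share resting on 2 genes), Esam (-0.81; 0.0340) and Emcn (-0.65; 0.0483), with sums of 57.9 to 183 CPM in RPC-labelled and 101 to 206 CPM in RP-labelled tumours. With edgeR no macrophage marker of 8 was called, with 2 at an unadjusted p under 0.05 (Csf1r, -0.94; adjusted p = 0.0758) and sums of 245 to 624.7 CPM in RPC-labelled and 309 to 1367 CPM in RP-labelled tumours. Csf1r was called lower by DESeq2 (adjusted p = 0.0328) and in tumours numbered 1 to 5 with the replicate block (0.0466) and without it (0.0328). No skeletal muscle marker of 5 was called (Acta1, 0.76; 0.771), and none had an unadjusted p under 0.05. Neuroendocrine markers had no call by edgeR among 10, with 3 at an unadjusted p under 0.05 (Scg3, -0.69; 0.0717), and summed to 25361 to 138349 CPM in RPC-labelled and 95793 to 233925 CPM in RP-labelled tumours. Scg3 was called lower by DESeq2 (adjusted p = 0.0289), by limma voom (0.0202) and without RPC-labelled replicate 4 (0.0395) or RP-labelled replicate 3 (0.0413). Leaving out RPC-labelled replicate 2 ended the calls of Plin1 (adjusted p = 0.0532), Tagln (0.0536), Fabp4, Retn, Abcc9, Esam and Emcn. Without RPC-labelled replicate 1 those of Fabp4, Retn, Abcc9, Esam and Emcn were lost, without RPC-labelled replicate 3 or RP-labelled replicate 2, 4 or 6 those of Abcc9, Esam and Emcn, without RPC-labelled replicate 5 those of Esam and Emcn, and without RPC-labelled replicate 4 or RP-labelled replicate 3 that of Emcn, with adjusted p-values of 0.0508 to 0.108. Apart from the fibroblast score, entered as a covariate above, the part of these cell types in the collagen differences was not tested.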

How the data were processed

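Polyadenylated RNA of 12 tumours was sequenced after TRIzol isolation, oligo(dT) selection and NEBNext Ultra library preparation, per the labels' protocols. The submitters' processing notes name HTSeq 0.6.1, TopHat2 2.0.12, bcl2fastq 1.8.2 and the genome build mm9; the sources used here do not give the annotation or the strand setting. Each deposited table holds unnormalized counts by gene symbol for 1 tumour, and its 5 summary rows (28.0% to 34.3% of the table) entered neither the library sizes nor the tests. No pair of libraries agreed within sampling noise. Detection floors cover counting error only, while standard errors and SDs include the spread among tumours.

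Counts were analysed in R 4.3.3 with edgeR 4.0.16 (filterByExpr with a minimum count of 10, TMM scaling, robust quasi-likelihood F test of all 12 tumours without covariates, Benjamini-Hochberg over 14989 genes, tested on simulated data). Standard errors are the log2 fold change's size over the square root of F, and CPM uses TMM-scaled library sizes. Tumours were grouped by the genotype label, and genes by collagen class or list.

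The members and gene lists were chosen with earlier results of these data known. The genes named are Col9a2, Col11a1, Col11a2, the main chains of types I to IV and VI, every called collagen, the smallest p of each class without a call, up to 3 called genes per list (otherwise the smallest p), and Crebbp; other collagens, Calca and the low cartilage markers were named after their values were seen. The result of 1 cell type marker list is not reported here. Lengths came from GENCODE vM21 and windows from RefSeq GRCm38.p6, matched by symbol for 43 and 35 collagens, in another build than the counts. Alternatives were DESeq2 1.42.0, limma 3.58.1 voom with sample weights, RLE and upper quartile scaling, no filter, a minimum count of 50, tumours numbered 1 to 5 with and without the number as a block, the fibroblast marker score (mean z-score of log2 CPM, prior count 2) as a covariate, and leaving out each tumour. Figures used numpy 2.4.6, pandas 2.3.3 and matplotlib 3.10.9.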

Additional observations from a re-analysis of the deposited data

Results flagged for a closer look

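A tumour far from the rest of its group was looked for by Dixon's test at the 95% level in 19 collagens and 9 class sums with the total. Chance alone marks about 1 in 20 groups. Among RP-labelled tumours, replicate 3 stood far above the others for Col1a1 (1047 CPM, next 357 CPM), for Col1a2 (790.2 CPM, next 344 CPM) and for Col27a1 (17.1 CPM, next 6.48 CPM). The same tumour stood apart for the summed stromal fibrillar collagens (3481 CPM, next 1408 CPM), for the summed later fibrillar collagens Col24a1 and Col27a1 (17.6 CPM, next 6.60 CPM), for the summed beaded-filament collagens, the type VI chains with Col28a1 (828.9 CPM, next 421 CPM) and for all collagens together (6166 CPM, next 3107 CPM). In the RPC-labelled group, replicate 5 stood apart for Col27a1 (8.69 CPM, next 3.11 CPM) and for the summed later fibrillar collagens (9.20 CPM, next 3.16 CPM), and replicate 4 for the summed transmembrane collagens (83.4 CPM, next 31.1 CPM), most of it Col23a1. The sums share genes with each other, so these results are not independent.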

How the results depend on the processing

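The 3 higher calls numbered 3 under DESeq2, both other scalings and both other filters, 6 with limma voom (Col10a1, Col18a1 and Col8a1 added) and 2 to 4 when 1 tumour was left out. The 6 lower calls numbered 1 to 6 when 1 tumour was left out and 2 with the fibroblast marker score as a covariate. DESeq2 kept all 6 and added Col6a2 and Col6a6, and limma voom lost only Col8a2. Both other scalings and the minimum count of 50 kept all 6. The fit without a filter lost Col8a2 and added Col6a6. For tumours numbered 1 to 5, the replicate block left 1 higher and 3 lower calls, against 2 and 2 in the same tumours without the block. Over all genes, the 1445 higher and 1291 lower calls became 2047 and 2035 with DESeq2, 3290 and 3062 with limma voom, 652 and 509 with the fibroblast score, 244 and 219 with the replicate block, 480 and 388 in those tumours without it, and 557 to 1800 and 517 to 1710 when 1 tumour was left out. Same-numbered tumours did not all deviate together (correlations of -0.06 to 0.16, 2 of 5 over 0.1, and 1 of 5 best with its own number). No label states that tumours of the same number are paired, and so few tumours cannot exclude a shared origin. Col9a2 was called in every setting run, and Col11a1 in all but the replicate block (adjusted p = 0.0656). No scaling moved the median of all genes by more than 0.02 on the log2 scale. The 7 collagens that did not pass the filter on low counts reached at most 3.69 CPM in any tumour, so the main test does not cover them.

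Signs changed only among genes not called. With limma voom the log2 fold changes were 0.12 for Col1a1, 0.14 for Col15a1, 0.0486 for Col20a1, 0.37 for Col5a1, 0.45 for Col5a2, 0.22 for Col5a3, 0.10 for Col6a3, -0.0563 for Col9a3, -0.0075 for Comp, -0.26 for Acta1 and 0.19 for Crebbp. With the fibroblast score they were 0.41 for Col14a1, 0.11 for Col3a1, 0.0924 for Col5a1, 0.30 for Col5a2 and -0.30 for Acta1. In tumours 1 to 5, Col12a1 had -0.0265 with the replicate block and -0.19 without it, Col17a1 -0.0577 and Crebbp 0.0054 with it. Leaving out 1 tumour gave -0.28 to 0.45 for Col12a1, -1.05 to 0.0902 for Col14a1, -0.99 to 1.87 for Col17a1, -0.57 to 0.91 for Col23a1, -0.41 to 0.21 for Col5a1, -0.55 to 0.22 for Col5a2, -0.77 to 0.17 for Col5a3, -0.83 to 0.0295 for Col6a3 and -0.0846 to 0.23 for Col9a3. The same ranges were -0.16 to 0.63 for Comp, -2.99 to 3.29 for Acta1 and -0.0774 to 0.19 for Crebbp. The cause of these changes was not tested.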
